A study of Mus musculus with 6 samples.

Results

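The genes described here move bicarbonate, protons and sodium across membranes, or serve the proteins that do. They were taken by symbol from the expression table: every Slc4a, Slc26a, Slc9a, Car, Atp1a, Atp1b and Fxyd symbol followed by a number, which gave 64 of the 21881 genes in the table. The tissue was the olfactory epithelium (OE), which holds the odour-sensing neurons of the nose, from adult NMRI mice. The KO mice carried NKCC1-/-, the loss of a sodium-potassium-chloride cotransporter encoded by Slc12a2, and the WT mice were wild type. Age beyond adult is not given in the labels. Each genotype had 3 RNA-seq libraries, each made from a pool of animals: a mixed pool of 2 epithelia of each sex, a male pool of 3 mice and a female pool of 3 mice. The labels name no promoter, Cre or cell type for the deletion. They do not say whether an animal entered more than 1 pool, so the pools may not be independent. The p-values treat the pools of a genotype as replicates, though these also differ in sex and sequencing depth. The comparison of KO with WT addresses here which other acid-base and chloride paths are transcribed when the cotransporter is missing.

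Olfactory neurons are unusual in holding a high internal chloride concentration, so that calcium-activated chloride channels in their cilia amplify the odour response by letting chloride out. NKCC1 loads that chloride on the sodium gradient made by the sodium pump. Chloride can also enter a cell in exchange for bicarbonate through Slc4 and Slc26 proteins, while carbonic anhydrases (Car genes) interconvert carbon dioxide and bicarbonate and Slc9 proteins export protons for sodium. The pump itself is an alpha subunit that splits ATP and a beta subunit needed for its delivery to the membrane. Small Fxyd proteins bind the pump and tune it.

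Values are FPKM, fragments per kilobase of transcript, scaled to library size, so levels are per transcript length. A duplex-specific nuclease step in library making lowers abundant transcripts, per the labels' protocols, so levels of different genes set side by side give their order in these libraries and not in the tissue. Log2 changes are KO minus WT on the log2(FPKM + 1) scale, which understates the change of low genes. All adjusted p-values come from limma with Benjamini-Hochberg adjustment over the 15067 genes that averaged 0.5 FPKM or more, and the threshold was 0.05.

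Several facts of the libraries bear on every value. The depth of the mixed pools was low, with about 3890000 (KO) and 3570000 (WT) fragments as estimated from low values, against 11180000 to 13990000 in the other libraries, and 1 fragment on 1 kb was worth 0.257 and 0.280 FPKM in them. The share of all FPKM taken by the top 10 genes was 33.5% (mixed), 34.4% (male) and 16.9% (female) in the KO pools, against 15.5, 16.4 and 45.7% in the WT pools. The median tested gene stood at 81.7% of WT in the mixed KO pool, 84.4% in the male and 150.8% in the female. Slc12a2, the targeted gene, had 28.0, 16.1 and 18.0 FPKM in the KO mixed, male and female pools, against 83.3, 40.2 and 35.99 FPKM in the WT ones. All its KO libraries were below all WT libraries, and its change of -1.26 ± 0.32 (SE) had an adjusted p of 0.11 in limma. Without the WT female pool that adjusted p was 0.0050. Leaving out that pool raised the genes past the threshold from 126 to 542 among all tested genes, whose median change was then -0.14. Of 12 markers of mature olfactory neurons all had a negative change, beside 47.9% of all tested genes, 1 passed the adjusted threshold, beside 0.836%, and their sum was 4341 to 6441 FPKM in KO and 7721 to 11806 FPKM in WT. In such bulk tissue, fewer cells of a type and less RNA per cell cannot be told apart.

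The transport genes spanned a wide range of levels. Of the 64, 52 passed the filter on low values. The other 12 averaged at most 0.268 FPKM over the 6 libraries. They were Slc4a5, Slc4a9, Slc4a10, Slc26a3, Slc26a5, Slc26a10, Slc9a4, Slc9a5, Slc9a10, Car5a, Atp1a4 and Atp1b4, and of these Slc26a3, Slc9a10, Car5a and Atp1b4 were listed at 0 in every library. The lowest gene that passed was the anion exchanger Slc26a4 (pendrin), with a mean of 0.561 FPKM. At the top, the pump subunit Atp1b1 averaged 446 FPKM over all libraries. Slc9a3r1, a scaffold protein for the proton exchanger Slc9a3, averaged 89.7 FPKM and the pump regulator Fxyd3 74.9 FPKM.

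None of the 52 transport genes passed the threshold, where 0.836% of all tested genes did (126 of 15067). At an unadjusted p under 0.05, 6 transport genes were higher in KO, where 4.26% of all genes were, and 1 was lower, where 4.62% were. The 6 were Car6, Car8, Car9, Fxyd2, Fxyd4 and Fxyd7. In 6 genes the KO libraries lay wholly above the WT libraries (Car8, Car9, Car10, Fxyd4, Fxyd7 and Slc9a3r2), against 7.46% of all genes, and in none wholly below, against 5.24%. The median log2 change of the 52 was 0.08, with 29 positive and 23 negative, beside 0.01 for all tested genes. By family the median was 0.56 in Fxyd (7 tested), 0.19 in Car (15), 0.13 in Slc26 (7), -0.01 in Slc4 (7), -0.11 in Slc9 (7) and -0.19 in the beta subunits (3). The Fxyd median was farthest from 0.

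**Figure D1:**
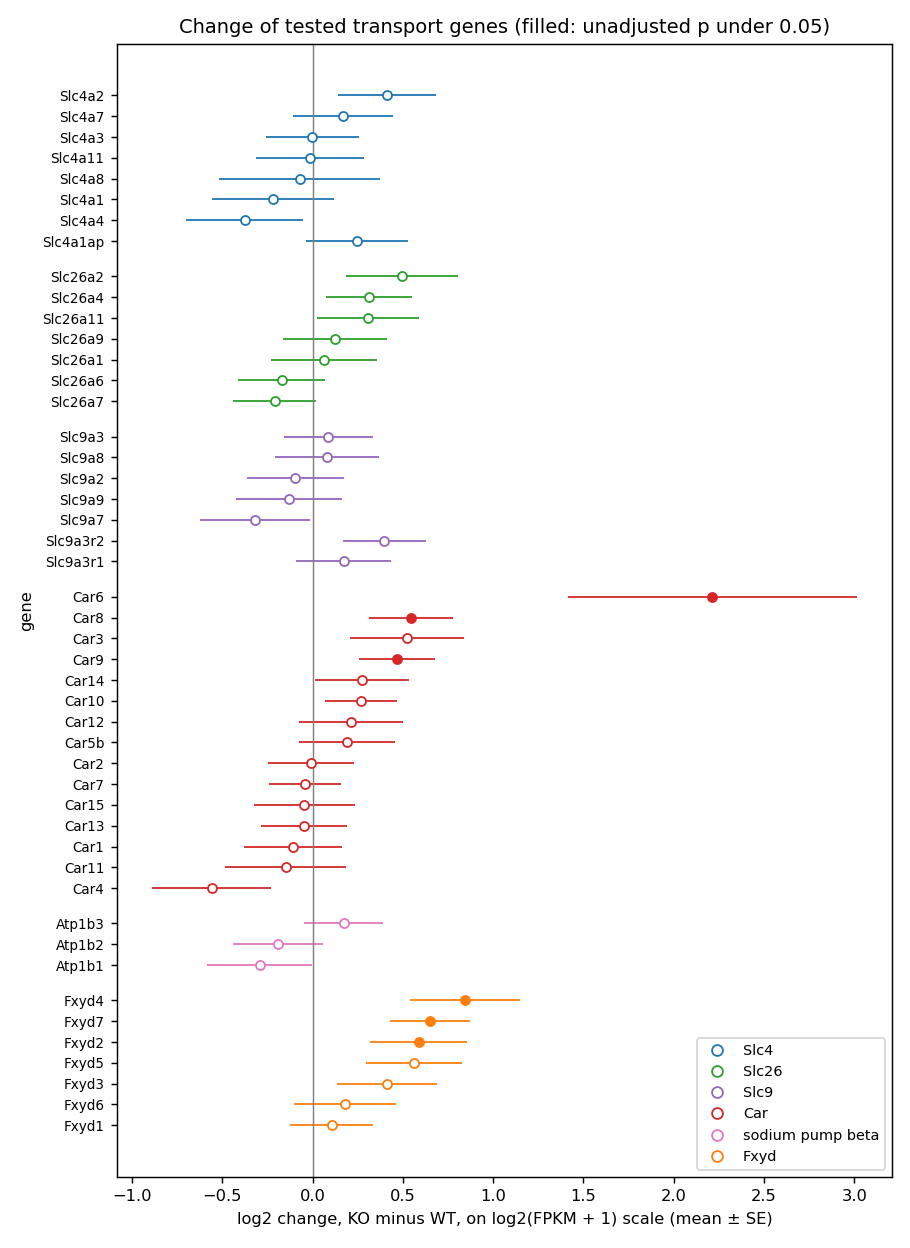
Log2 change of 47 of the 52 tested transport genes (KO minus WT on the log2(FPKM + 1) scale), grouped by family, with points for the limma estimate and bars for ± 1 SE, filled where the unadjusted p was under 0.05. Car6 stands apart at 2.21, all 7 Fxyd genes lie right of 0 (5 do so without the KO female pool), and the Slc4 and Slc9 genes scatter about 0.

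The direction often differed between kinds of pool. In 26 of the 52, which is 50% of them, the KO value was below WT in the mixed and male pools and above WT in the female pools, as it was for 55.3% of all tested genes. Higher in KO in all 3 kinds of pool were 9 genes, or 17.3%, beside 13.4% of all genes: Car6, Car8, Car9, Car10, Fxyd3, Fxyd4, Fxyd7, Slc26a2 and Slc9a3r2. Lower in all 3 were 2 genes, or 3.85%, Slc4a1 among them, beside 8.28% of all genes. These patterns are a description of the pools and carry no test.

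The widest difference was in Car6, the carbonic anhydrase secreted by salivary and nasal glands into their fluid. Its promoter and those of 2 other genes that were higher in KO are shown here because they let a reader see the region before each gene's start. They are 250 bases up to the start, 5′ to 3′ on the gene's strand, from RefSeq on GRCm38.p6, a later build than the mm9 of the deposited values. Car6 lies at chr4:150201136-150201385 on the minus strand, Car9 at chr4:43506776-43507025 on the plus strand and Fxyd4 at chr6:117937336-117937585 on the minus strand. Capitals mark ACGTG on either strand, the core of hypoxia response elements, with the base that completes CACGTG (the E-box) in Car6.
Car6: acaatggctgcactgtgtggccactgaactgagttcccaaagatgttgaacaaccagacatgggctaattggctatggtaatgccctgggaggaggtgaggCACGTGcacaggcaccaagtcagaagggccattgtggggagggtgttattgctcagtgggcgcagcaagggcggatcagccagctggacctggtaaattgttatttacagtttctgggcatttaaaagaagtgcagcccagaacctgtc
Car9: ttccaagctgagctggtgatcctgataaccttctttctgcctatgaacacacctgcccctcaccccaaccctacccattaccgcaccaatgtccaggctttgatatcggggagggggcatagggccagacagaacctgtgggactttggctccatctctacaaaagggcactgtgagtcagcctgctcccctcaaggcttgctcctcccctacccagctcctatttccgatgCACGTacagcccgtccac
Fxyd4: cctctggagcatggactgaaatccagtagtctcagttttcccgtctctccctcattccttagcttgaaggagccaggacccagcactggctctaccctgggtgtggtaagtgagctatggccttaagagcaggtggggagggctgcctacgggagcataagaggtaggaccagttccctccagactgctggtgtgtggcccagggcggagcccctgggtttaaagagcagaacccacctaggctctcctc
Car9 is a well known hypoxia-induced gene, and its match on the minus strand begins 18 bases before the start. The Car6 E-box reads the same on both strands, so it counts as 2 overlapping matches, 149 and 148 bases before the start. Fxyd4 had no match to these letters in this window. Promoters were found for 42 of the 64 genes (52 entries), and 13.46% of those entries held ACGTG, beside 16.57% of all 32851 entries. For CACGTG the shares were 7.692 and 6.021%, for GGGCGG (the GC box) 40.38 and 32.74%, and for TATAAA 15.38 and 12.37%, both strands searched. A match is a description of letters and not a binding site.

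Car6 had 94.0, 75.5 and 8.82 FPKM in the KO mixed, male and female pools, against 23.1, 9.90 and 1.72 FPKM in the WT ones. The KO level was 407% of WT for the mixed pools, 762% for the male and 514% for the female. Within each kind of pool KO was thus several-fold above WT, but the KO female pool was below the WT mixed and male pools, so the groups overlapped. The change was 2.21 ± 0.80 (SE) with a 95% interval of 0.48 to 3.95, and its adjusted p of 0.33 in limma did not pass. Without the WT mixed pool the change was 2.93, and without both mixed pools it was 2.33. Car6 then passed, with adjusted p of 3.0e-10 and 2.1e-07 in limma, where 433 and 348 of all tested genes passed. Its KO pools still ran from 8.82 to 94.0 FPKM and from 8.82 to 75.5 FPKM in these fits. Such p-values do not measure the spread between its own pools, since limma moves each gene's variance toward that of other genes. Over the pools left out 1 at a time the change ran from 1.36, without the WT female pool, to 3.25, without the KO female pool. The adjusted p in limma rose to 0.86 without the KO mixed pool and 0.62 without the KO male pool. It was 0.62 with no filter, 0.90 with a robust variance trend and 0.060 with a term for the mixed pools.

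Gland markers were read in the same libraries. All 7 measured gland and secretory markers had a positive change on the log2 scale, beside 52.1% of all tested genes. Of the 7, 4 had an unadjusted p under 0.05 (beside 4.26% of all tested genes), and none was listed at 0 throughout. The mucin Muc5b had 61.6, 32.5 and 57.0 FPKM in the KO mixed, male and female pools, against 25.2, 25.6 and 8.53 FPKM in the WT ones, and the groups did not overlap. The summed list, carried by the odorant binding protein Obp1a, was 29945, 24141 and 4675 FPKM in KO, against 8087, 5945 and 48113 FPKM in WT. Obp1a was highest in the WT female pool, at 47418 FPKM, where Car6 was lowest. In mean FPKM Obp1a was lower in KO, at 18175 FPKM against 19915 FPKM in WT. The part of gland content in the Car6 values was not tested.

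Among the cytosolic carbonic anhydrases, Car2 was the most abundant, as an enzyme of many fluid-secreting epithelia. It had 49.5, 45.6 and 75.8 FPKM in the KO mixed, male and female pools, against 58.5, 57.6 and 51.7 FPKM in the WT ones. The WT pools lay within the range of the KO pools, and the change was -0.01 with a 95% interval of -0.52 to 0.51. Its sign turned with quantile normalisation and without several of the libraries. Car3, a low-activity enzyme of muscle and fat, averaged 7.87 ± 1.75 FPKM in KO and 5.43 ± 2.63 in WT (SD, n = 3 each), with overlapping groups. Markers of skeletal muscle summed to 2.17 to 3.30 FPKM in any library. The 6 adipocyte markers summed to 0.316 to 0.329 FPKM in KO and 0.580 to 0.914 FPKM in WT, nearly all of it Adipoq and Cfd, which were each detected in 5 libraries, while Lep and Retn were listed at 0 in all. The part of either tissue in the Car3 values was not tested. Car13 averaged 2.37 and 2.50 FPKM in KO and WT, Car7 0.612 and 0.654, and Car1 0.557 and 0.715, all with overlapping groups. Of the mitochondrial enzymes, Car5b averaged 2.38 FPKM in KO and 2.01 FPKM in WT.

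Of the membrane-bound enzymes, Car9 had 1.34, 0.972 and 0.899 FPKM in the KO mixed, male and female pools, against 0.734, 0.402 and 0.369 FPKM in the WT ones. Each KO pool was above each WT pool. The change was 0.47 (95% interval 0.01 to 0.92, adjusted p = 0.54 in limma), at levels that correspond to a few fragments per kilobase in the mixed pools. Car4, which faces the outside of capillary and epithelial cells, had 4.80, 2.06 and 6.74 FPKM in the KO pools, in the same order, against 7.10, 6.14 and 6.58 FPKM in the WT ones. The KO male pool was lowest and the groups overlapped, with a change of -0.56 (95% interval -1.27 to 0.15). Car12 averaged 9.79 ± 1.27 FPKM in KO and 8.64 ± 3.37 FPKM in WT (SD, n = 3 each), and Car14 and Car15 averaged between 0.946 and 3.24 FPKM in either group. In the longest annotated transcript of Car15, 82.0% of the exonic bases lie under the annotated gene Gm20518. In that of Car14, 26.0% lie under Aph1a, so fragments of both genes cannot be assigned surely.

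Of the catalytically inactive relatives, Car8 and Car10 had separate groups at low levels. Car8, known from cerebellar neurons as a binding partner of a calcium release channel, had 2.42, 2.86 and 2.48 FPKM in the KO mixed, male and female pools, against 1.25, 1.81 and 1.35 FPKM in the WT ones. No KO pool overlapped with a WT pool, and the change was 0.54 (95% interval 0.04 to 1.05, adjusted p = 0.50 in limma). It kept its direction with each library left out, at 0.48 to 0.64. Car10 was also separate, with 0.597 to 0.970 FPKM in KO and 0.445 to 0.568 FPKM in WT. Car11 was not, with 4.09 to 6.05 FPKM in KO and 4.27 to 10.8 FPKM in WT. Summed over the family, Car genes held 187, 156 and 133 FPKM in the KO mixed, male and female pools, against 133, 104 and 84.5 FPKM in the WT ones. The KO female sum was just below the WT mixed sum, and the two-sided exact permutation p was 0.2, where 0.1 is the smallest possible with 3 against 3. Car6 made up 50.2, 48.3 and 6.65% of the KO sums, against 17.4, 9.53 and 2.03% of the WT sums.

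**Figure D2:**
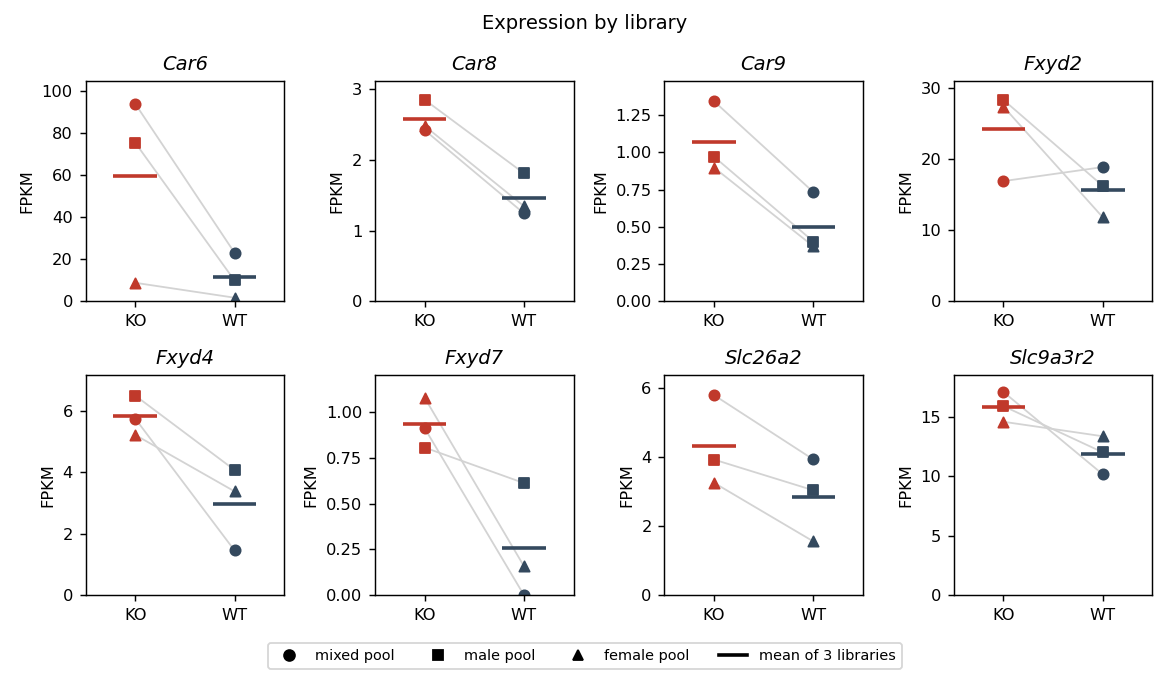
FPKM of 8 transport genes in the KO and WT libraries, with a mark for each kind of pool, grey lines between pools of the same kind and bars at the means of 3 libraries. Car8, Car9, Fxyd4, Fxyd7 and Slc9a3r2 do not overlap between genotypes, while Car6 and Slc26a2 are higher in KO within each kind of pool.

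All 7 Fxyd regulators had a positive change, where 52.1% of all tested genes did. Of the 7, 3 had an unadjusted p under 0.05, beside 4.26% of all genes that were higher at it, and none passed the adjusted threshold. The 7 signs held under each scaling tried, while without the KO female pool Fxyd1 and Fxyd6 had changes of -0.067 and -0.11. Fxyd4, known in kidney and colon as a corticosteroid-induced regulator that raises the pump's affinity for sodium, had 5.75, 6.49 and 5.21 FPKM in the KO mixed, male and female pools, against 1.45, 4.07 and 3.38 FPKM in the WT ones. All KO pools were above all WT pools, with the WT mixed pool lowest. The change was 0.84 (95% interval 0.18 to 1.502, adjusted p = 0.33 in limma), and it was 0.53 to 1.05 with single libraries left out. Fxyd7, a regulator best known from brain, had 0.913, 0.807 and 1.08 FPKM in the KO pools, in the same order. In the WT male and female pools it had 0.613 and 0.158 FPKM, and it was listed at 0 in the WT mixed pool. The groups did not overlap, though such levels amount to few fragments, and the change was 0.65 (95% interval 0.17 to 1.13, adjusted p = 0.29 in limma).

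Fxyd2, the gamma subunit of the renal pump, had 16.9, 28.4 and 27.4 FPKM in the KO mixed, male and female pools, against 18.9, 16.3 and 11.8 FPKM in the WT ones. The KO mixed pool was below the WT mixed pool, so the groups overlapped, and the change was 0.59 (95% interval 0.01 to 1.17, adjusted p = 0.55 in limma). Fxyd5 (dysadherin), which also weakens cell adhesion, had 16.3, 13.9 and 15.8 FPKM in the KO pools against 9.38, 14.3 and 7.48 FPKM in the WT pools, in the same order. Its WT male pool reached into the KO range, and the change was 0.56 (95% interval -0.01 to 1.14). Markers of macrophages, cells that can also express Fxyd5, summed to 133 to 208 FPKM in KO and 73.4 to 114 FPKM in WT. All 6 had a positive change, beside 52.1% of all tested genes. Their part in the Fxyd5 values was not tested.

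Fxyd3, the most abundant regulator, had 65.7, 106 and 83.9 FPKM in the KO mixed, male and female pools, against 43.7, 66.9 and 83.4 FPKM in the WT ones. The female pools were almost equal and the groups overlapped, with a change of 0.41 (95% interval -0.18 to 1.005). Of the exonic bases of its longest annotated transcript, 65.0% lie under the neighbouring gene Lgi4. Fxyd1 (phospholemman), the regulator of heart and muscle, averaged 31.6 ± 7.18 FPKM in KO and 28.9 ± 2.38 FPKM in WT, and Fxyd6 averaged 22.0 ± 8.80 FPKM in KO and 18.5 ± 2.74 FPKM in WT (SD, n = 3 each). Both overlapped between genotypes. Summed, the family held 147, 203 and 205 FPKM in the KO mixed, male and female pools, against 120, 150 and 154 FPKM in the WT ones. Within each kind of pool the KO sum was 123, 135 and 133% of WT, the KO mixed sum lay within the WT range, and the exact permutation p was 0.3. Fxyd5, Fxyd7 and Fxyd1 are direct neighbours on chromosome 7 and Fxyd6 and Fxyd2 on chromosome 9.

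The beta subunits of the sodium pump included the most abundant transcript of all genes described here. Atp1b1, the main beta subunit, had 386, 346 and 451 FPKM in the KO mixed, male and female pools, against 635, 522 and 334 FPKM in the WT ones. Its groups overlapped through the WT female pool, with a change of -0.29 (95% interval -0.92 to 0.33). Atp1b3, the beta subunit next in level, had 64.1, 52.4 and 68.7 FPKM in the KO pools, against 52.2, 62.4 and 49.3 FPKM in the WT pools, in the same order. It overlapped as well, with a change of 0.17 (95% interval -0.30 to 0.65). Atp1b2, an adhesion molecule on glia as well as a pump subunit, had 9.10 to 10.2 FPKM in KO and 8.65 to 13.5 FPKM in WT.

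Ratios and shares within a library do not depend on how that library was scaled. Both can still depend on the nuclease step, which lowers abundant transcripts, and its part in them was not tested. Of 5 ratios between the 2 most abundant members of a family, 2 separated the genotypes, where the levels of the genes themselves did not. How often ratios of other genes separate was not computed, while 7.46% of all genes were wholly higher in KO and 5.24% wholly lower. The ratio of Atp1b1 to Atp1b3 was 6.01 in the mixed KO pool, 6.60 in the male and 6.57 in the female, against 12.2, 8.37 and 6.78 in the WT ones. Each KO ratio was below each WT ratio, the KO male and the WT female pool lying nearest to each other, with an exact permutation p of 0.1, which is the smallest possible. Atp1b1 formed 83.9 to 85.1% of the summed beta subunits in KO and 85.2 to 90.6% in WT, with the same p. Of the exonic bases of the longest Atp1b1 transcript, 22.3% lie under Nme7. In the longest Atp1b3 transcript, 11.7% of the 50-base stretches recur in Gm1848.

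**Figure D3:**
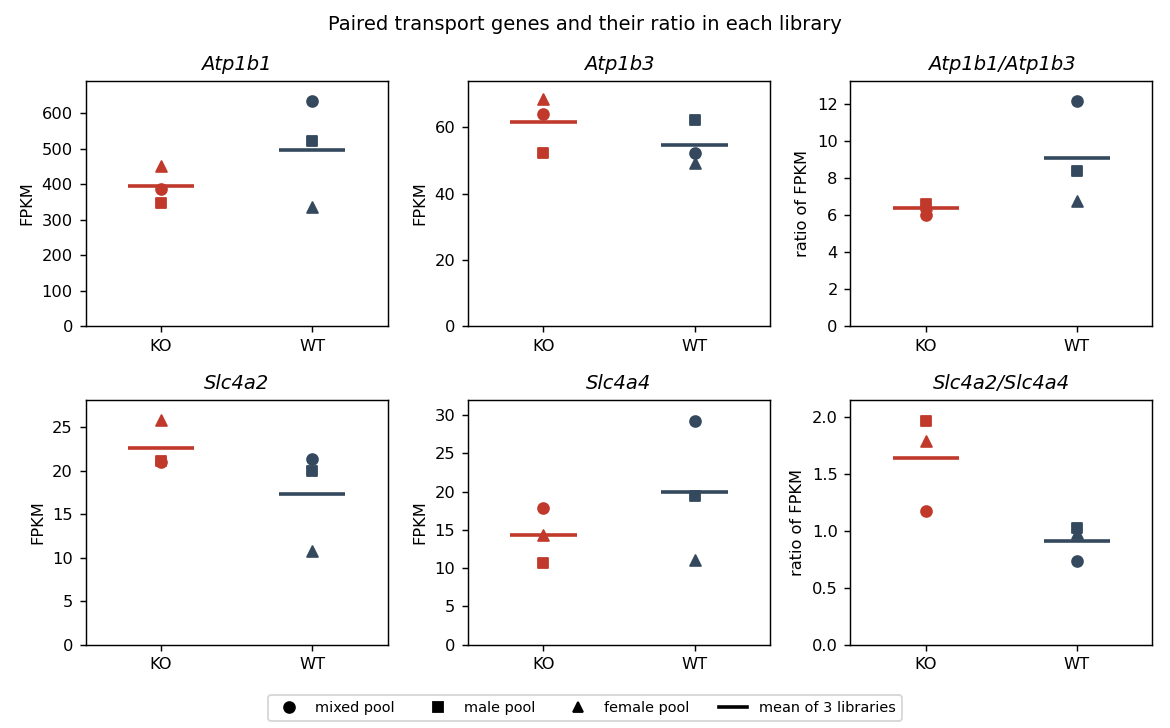
Levels (FPKM) of Atp1b1, Atp1b3, Slc4a2 and Slc4a4 in the KO and WT libraries, and the ratio of each pair within a library, with bars at the means of 3 libraries. All 4 genes overlap between KO and WT, while Atp1b1/Atp1b3 is 6.01 to 6.60 in KO and 6.78 to 12.2 in WT and Slc4a2/Slc4a4, chosen after the values were seen, is 1.17 to 1.97 in KO and 0.731 to 1.02 in WT.

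Among the Slc4 chloride-bicarbonate exchangers, Slc4a2 (AE2), which is found in most epithelia, was the most abundant. It had 20.97, 21.1 and 25.8 FPKM in the KO mixed, male and female pools, against 21.4, 19.9 and 10.8 FPKM in the WT ones. The mixed and male pools were close between genotypes and the WT female pool was low. The groups overlapped through the WT mixed pool, which was above the KO mixed and male pools. The change was 0.41 (95% interval -0.18 to 1.002) and 0.12 without the WT female pool. Slc4a1 (AE1), the exchanger of red blood cells that has also been reported in olfactory cilia, had 1.86, 1.10 and 0.482 FPKM in the KO pools, against 3.03, 1.19 and 0.603 FPKM in the WT pools, in the same order. KO was lower within each kind of pool but the groups overlapped, with a change of -0.22 (95% interval -0.95 to 0.51). Red cell markers summed to 408 to 496 FPKM in KO and 354 to 2520 FPKM in WT. All 6 tested had a negative change, beside 47.9% of all tested genes, and their part was not tested. Slc4a3 (AE3), the exchanger of heart and brain, averaged 1.68 ± 0.37 FPKM in KO and 1.72 ± 0.66 FPKM in WT (SD, n = 3 each).

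Of the sodium-coupled bicarbonate transporters, Slc4a4 (NBCe1), which carries bicarbonate with a net charge, had 17.9, 10.7 and 14.4 FPKM in the KO mixed, male and female pools, against 29.2, 19.5 and 11.0 FPKM in the WT ones. The WT female pool was close to the KO male pool, so the groups overlapped, and the change was -0.38 (95% interval -1.08 to 0.33). Slc4a7 (NBCn1), an electroneutral cotransporter, averaged 11.3 ± 1.70 FPKM in KO and 10.2 ± 3.33 FPKM in WT, and Slc4a8, which drives chloride out in exchange for sodium and bicarbonate, averaged 4.82 ± 1.96 FPKM in KO and 5.99 ± 4.91 FPKM in WT (SD, n = 3 each). Slc4a11, a sodium and proton conducting relative known from corneal endothelium, had 15.7, 13.1 and 24.2 FPKM in the KO pools, against 21.8, 20.4 and 11.5 FPKM in the WT pools, in the order mixed, male and female. Its change was -0.01 (95% interval -0.66 to 0.63), a sign that turned under 5 alternatives that left out libraries. Its effect differed by 1.62 between the female and the male pools, with an unadjusted p of 0.027 and an adjusted p of 0.68 in limma. Each genotype had 1 male and 1 female library, so sex and single library cannot be told apart. The median tested gene likewise stood at 84.4% of WT in the male pools and 150.8% in the female. Slc4a11 was 1 of 2 transport genes with an unadjusted p under 0.05 in that test, beside 4.15% of all genes. Of the 52, 0 passed its adjusted threshold, beside 0.126%. Slc4a1ap, which the symbol rule also took, is no transporter, and it had 6.86, 6.71 and 7.81 FPKM in the KO pools, against 7.21, 7.20 and 3.76 FPKM in the WT ones. It overlapped between genotypes, with a positive change of 0.25 that was -0.016 without the WT female pool.

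Within the Slc4 family the share of Slc4a2 was higher in KO. It was 26.8, 35.0 and 31.1% of the summed Slc4 FPKM in the KO mixed, male and female pools, against 20.7, 25.6 and 24.4% in the WT ones. All KO shares were above all WT shares, at the smallest exact permutation p that is possible, 0.1. Slc4a4 was 17.3 to 22.9% in KO and 24.9 to 28.4% in WT, also without overlap. The ratio of Slc4a2 to Slc4a11 was 1.34, 1.61 and 1.07 in KO, against 0.978, 0.977 and 0.940 in WT. The ratio of Slc4a2 to Slc4a4, chosen after the values were seen, was 1.17, 1.97 and 1.79 in KO and 0.731, 1.02 and 0.980 in WT. Of the exonic bases of the longest Slc4a2 transcript, 16.3% lie under Fastk. The family sum was 73.8 ± 12.0 FPKM in KO and 75.0 ± 29.5 FPKM in WT (SD, n = 3 each, exact permutation p = 1). Of the 38 shares computed for transport genes averaging 1 FPKM or more, 3 were wholly higher in KO (Slc4a2, Slc9a8 and Atp1b3). Wholly lower were 4 (Slc4a4, Slc9a7, Car4 and Atp1b1), and shares of the same family are not independent. Among the levels of all tested genes, 7.46% were wholly higher in KO and 5.24% wholly lower.

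In the Slc26 family of anion transporters, Slc26a7, an exchanger and channel of stomach, kidney and thyroid, was the most abundant. It had 19.1, 22.2 and 22.9 FPKM in the KO mixed, male and female pools, against 27.3, 28.4 and 19.8 FPKM in the WT ones. The WT female pool lay within the KO range, and the change was -0.21 (95% interval -0.71 to 0.29). Slc26a2, a sulfate transporter of cartilage, had 5.78, 3.92 and 3.25 FPKM in the KO pools, against 3.92, 3.03 and 1.55 FPKM in the WT pools, in the same order. It was higher in KO within each kind of pool, but the groups overlapped and the change was 0.50 (95% interval -0.17 to 1.16). Slc26a1, another sulfate transporter, had 4.12, 2.56 and 5.62 FPKM in KO and 4.005, 4.42 and 2.89 FPKM in WT, and its sign turned without either female pool. Slc26a11 had 3.12, 2.10 and 3.16 FPKM in KO and 2.84, 2.40 and 1.15 FPKM in WT. Slc26a6, Slc26a9 and Slc26a4, which exchange or conduct chloride in gut, airway and inner ear, averaged between 0.408 and 1.78 FPKM in either genotype. The family sum was 36.5 ± 2.76 FPKM in KO and 37.5 ± 8.94 FPKM in WT (SD, n = 3 each, exact permutation p = 0.9).

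The reported Slc9 sodium-proton exchangers overlapped between genotypes. Among those of endosomes and Golgi, Slc9a7 had 4.62, 3.81 and 6.06 FPKM in the KO mixed, male and female pools, against 8.91, 6.49 and 3.98 FPKM in the WT ones. Its change was -0.32 (95% interval -0.98 to 0.34). Slc9a9 had 7.79, 7.90 and 10.6 FPKM in KO and 12.3, 11.7 and 6.04 FPKM in WT, in the same order of pools. For both genes KO was lower in the mixed pools and in the male ones but higher in the female pools, and the sign of Slc9a9 turned without the WT mixed or both mixed pools. Slc9a8, of the Golgi, averaged 10.5 ± 1.57 FPKM in KO and 10.2 ± 3.53 FPKM in WT (SD, n = 3 each). Of the exchangers at the cell surface, Slc9a2 averaged 8.44 ± 2.45 FPKM in KO and 8.94 ± 1.25 FPKM in WT, and Slc9a3, of gut and kidney, 1.45 ± 0.60 FPKM in KO and 1.26 ± 0.17 FPKM in WT (SD, n = 3 each). The scaffold Slc9a3r2 (NHERF2), which anchors Slc9a3, was separate, with 17.1, 15.9 and 14.6 FPKM in the KO mixed, male and female pools, against 10.2, 12.0 and 13.4 FPKM in the WT ones. Its change was 0.40 (95% interval -0.10 to 0.90), and that of the other scaffold, Slc9a3r1 (NHERF1), was 0.17 (95% interval -0.40 to 0.74). The Slc9 sum without scaffolds was 55.5 ± 9.23 FPKM in KO and 61.7 ± 20.02 FPKM in WT (SD, n = 3 each, exact permutation p = 0.7).

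**Figure D4:**
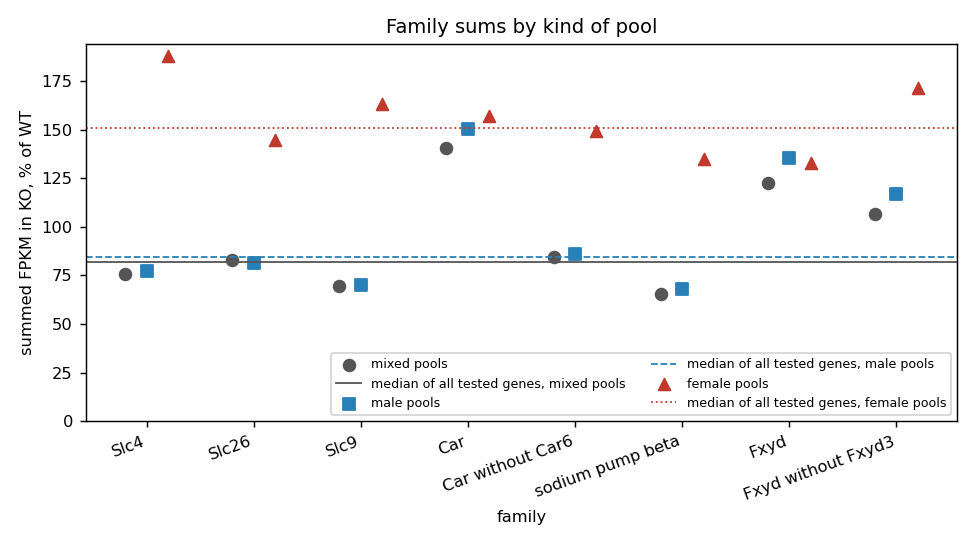
Summed FPKM of each family in KO as a percentage of WT, by kind of pool, with lines at the median of all tested genes in the same kind of pool. Car (141, 150 and 157%) and Fxyd (123, 135 and 133%) exceed 100% in the mixed, male and female pools. Without Car6 the Car sum is 84.7, 85.9 and 149.6% and lies by the lines, while Fxyd without Fxyd3 stays above 100% (107, 117 and 172%). The other sums are below 100% in the mixed and male pools and above it in the female ones.

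Seen by kind of pool, the Car and Fxyd sums were above the median gene in the mixed and male pools, in the Car family through 1 gene. In these pools the Car sums were 141 and 150% of WT and the Fxyd sums 123 and 135%, beside 81.7 and 84.4% for the median tested gene. In the female pools they were 157 and 133%, beside 150.8%. With Car6 left out, a sum chosen after the values were seen, the other Car genes were at 84.7% of WT for the mixed, 85.9% for the male and 149.6% for the female pools, close to the median gene in each. The Fxyd sum without its most abundant member Fxyd3, likewise chosen, was at 107, 117 and 172% in the same order. The beta subunits were at 65.6% of WT for the mixed pools, 68.3% for the male and 135% for the female, on the side of the median gene in each.

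Other genes of chloride and acid transport gave 0 calls in any list, from 4 lists of 10, 23, 7 and 10 tested genes. Of 10 genes for chloride uptake, exit and channels, 3 were lower at an unadjusted p under 0.05, beside 4.62% of all tested genes, and 1 of the 3 was the targeted gene Slc12a2. Slc12a5 (KCC2), which extrudes chloride from neurons, had 0.744, 0.695 and 0.605 FPKM in the KO mixed, male and female pools, against 2.90, 1.27 and 1.33 FPKM in the WT ones, without overlap (change -0.71, adjusted p = 0.32 in limma). Ano2, the ciliary calcium-activated chloride channel, had 37.0, 34.9 and 48.2 FPKM in the KO pools and 82.2, 85.3 and 42.4 FPKM in the WT pools, and its change was -0.74 (adjusted p = 0.37 in limma). Without the WT female pool the change of Ano2 was -1.06 (adjusted p = 0.013), where 542 of all tested genes passed. Ano2 is a gene of mature olfactory neurons, and the part of their markers, whose values are given above, in the Ano2 value was not tested.

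Of 23 tested genes of the proton pump, the median change was -0.06. Of these, 1 was higher at an unadjusted p under 0.05, close to the 4.26% of all tested genes. That gene, Atp6v1c2, a subunit of the vacuolar proton pump of acid-secreting cells, had 51.8, 56.9 and 70.5 FPKM in the KO mixed, male and female pools, against 34.8, 32.3 and 23.6 FPKM in the WT ones. All KO pools were above all WT pools, and the change was 0.97 (95% interval 0.46 to 1.47, adjusted p = 0.092 in limma). With median, upper quartile and quantile scaling the adjusted p in limma was 0.013, 0.013 and 0.0073, where 267, 276 and 270 of all tested genes passed. Without the WT mixed pool or both mixed pools it was 0.012 and 0.034, where 433 and 348 passed. Atp6v1c2 thus passed under each of these settings, while the count over all genes was 126 without them. Tcirg1, a pump subunit of osteoclasts and other immune cells, was also separate, with 11.1 to 13.4 FPKM in KO and 7.13 to 9.65 FPKM in WT. All 6 macrophage markers and both tested osteoclast markers had a positive change, beside 52.1% of all tested genes, and their part was not tested. All 8 markers of microvillar and ionocyte-like cells had a positive change, 3 at an unadjusted p under 0.05, beside 52.1 and 4.26% of all tested genes. In Trpm5, Avil, Gnat3 and Atp6v0d2 the KO pools lay wholly above the WT pools, against 7.46% of all genes. Foxi1, Ascl3, Cftr and Atp6v1b1 overlapped, and Ascl3 averaged 41.9 FPKM in KO and 40.6 FPKM in WT. The 8 markers summed to 107, 127 and 185 FPKM in the KO mixed, male and female pools, against 115, 134 and 70.3 FPKM in the WT ones. The KO sum was thus 93.7 and 94.6% of WT for the mixed and male pools and 263% for the female. Their part in the Atp6v1c2 values was not tested. That marker list shares Cftr, Atp6v1b1 and Atp6v0d2 with the lists of channels and pump subunits.

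Among 7 genes of acid transport and bicarbonate sensing, the lactate carrier Slc16a3 had 3.27, 4.70 and 7.74 FPKM in the KO mixed, male and female pools, against 3.10, 3.31 and 2.51 FPKM in the WT ones, and the groups overlapped. Slc16a7, a related carrier, had 5.12 to 5.78 FPKM in KO and 6.80 to 9.07 FPKM in WT, without overlap (change -0.39, 95% interval -0.94 to 0.15). Of 10 genes of sodium entry and sodium-calcium exchange, the exchangers Slc24a2 and Slc8a1 had changes of -0.93 and -0.73 with overlapping groups (adjusted p = 0.58 and 0.62 in limma). Without the WT female pool these were -1.46 and -1.09 (adjusted p = 0.0079 and 0.037), where 542 of all tested genes passed.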

How the data were processed

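RNA-seq of olfactory epithelium was analysed from 1 deposited table of FPKM, made by the authors with TopHat2 2.0.7, Bowtie, Cufflinks 1.3.3 and Cuffdiff on mouse build mm9, per the submitters' processing notes. The table does not name its unit, which was taken from the header's form, the values and these programs. RNA came from columns with a DNase step and libraries were treated with duplex-specific nuclease, per the labels' protocols, which lowers abundant transcripts and compresses their differences. The male and female columns matched sample titles, and the remaining column of each genotype, with no sex in its name, was taken as its mixed pool.

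The table held 22310 rows. Repeated symbols were reduced to their highest row, which dropped 429 rows, none of them of the 64 genes described. Genes averaging 0.5 FPKM or more were tested on log2(FPKM + 1) with limma 3.58.1 (R 4.3.3) and a variance trend, and adjusted p-values are over all 15067 genes. For sums, shares and ratios the test was a two-sided exact permutation test. The difference of the KO effect between the sexes was the product of genotype and female share of the pool, which cannot be told apart from single libraries. Depth is unknown without counts and was approximated from what 1 fragment is worth in low FPKM, with GRCm38 gene lengths. The limma fit was run on simulated data with independent noise in each gene. These held no shift of whole libraries and no difference in depth, so they do not show how it behaves under either. Of the 64 genes, 5 are counted with the rest but not reported here singly.

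The genes, gene lists and markers were chosen with earlier results of these data known. Genes named with every library were Slc12a2, the 2 of highest mean and up to 3 of smallest p (mean of at least 1 FPKM) in each family, and up to 2 of smallest p in each list. Car9, Fxyd7, Car10, Slc9a3r2 and the other genes given by mean or range fall outside that rule, and these 4, Slc4a1 and Muc5b were picked with their values in view. Gene overlaps and shared 50-base stretches are those of each gene's longest transcript in GENCODE models of GRCm38. They were counted where over 10%. Alternatives covered the pseudocount, filter, scaling, variance model, kind of pool and libraries left out.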

Additional observations from a re-analysis of the deposited data

How the results depend on the processing

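The count of transport genes past the threshold was 0 under each alternative except 3. It was 1 (Car6) with the kind of pool as a replicate block, 1 (Car6) without both mixed pools, and 0 to 2 with single libraries left out, with 2, Car6 among them, without the WT mixed pool. At an unadjusted p under 0.05 it was 3 with a filter of 2 FPKM, 4 with the replicate block, and 3 to 9 with single libraries left out. The share of all tested genes at that unadjusted p was not computed for these settings, so these counts have no background beside them. Among all genes the count of 126 was 30 without a filter, 267, 276 and 270 with median, upper quartile and quantile scaling, 440 with the replicate block, 289 with a term for the mixed pools, 348 without both mixed pools, and 40 to 542 with single libraries left out, at 40 without the KO female, 44 without the KO mixed, 81 without the WT male, 433 without the WT mixed and 542 without the WT female pool. The replicate block stands on the kind of pool only. Deviations from the group means correlated at 0.36 between the mixed, 0.21 between the male and -0.09 between the female pools, and the KO male pool correlated best with the WT female pool (0.31), so the pools share a kind but are not shown to pair. With the block the adjusted p in limma was 3.5e-08 for Car6 and 0.0082 for Slc12a2. For Car6 so small a value is likewise no measure of the spread between its own pools.

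Of 661 values of the 35 named genes under alternatives, 630 kept direction and side of the threshold, 14 newly passed and 17, in 6 genes, turned. Turned signs were Slc4a11 0.21, Slc9a9 0.10 and Car2 0.11 without both mixed pools, and Car2 0.052 with quantile normalisation. With single libraries left out the log2 change ran from -0.29 to 0.17 for Slc4a11, -0.016 to 0.38 for Slc4a1ap, -0.15 to 0.30 for Slc26a1, -0.43 to 0.034 for Slc9a9, -0.23 to 0.13 for Car2 and -0.067 to 0.21 for Fxyd1. The difference KO minus WT of summed FPKM turned without both mixed pools in Slc4 (10.6), Slc26 (2.18) and Slc9 (2.73), and in Slc4 with median and upper quartile scaling (1.06 and 1.27). Counting Slc4a1ap in the Slc4 sum, an alternative chosen after seeing the data, gave -0.12 beside -1.20. Also chosen then, leaving Car6 out of the Car sum gave 3.68 beside 51.5, and leaving Fxyd3 out of the Fxyd sum 23.3 beside 43.7. With single libraries left out the difference of the full sums ran from -16.6 to 12.8 in Slc4, -6.19 to 1.94 in Slc26 and -17.2 to 2.45 in Slc9. In percentage points the share of Fxyd3 ran from -3.48 to 5.38, which was -2.91 without both mixed pools. The cause of these turns was not tested. The median change of all genes moved to 0.14 without both mixed pools, 0.13 without the WT mixed and -0.14 without the WT female pool. With 3 pools a genotype and the shallow mixed pools, low genes such as Fxyd7 and Car9 rest on few fragments.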
